A study of Danio rerio with 12 samples.

Results

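Vascular endothelial genes were followed in zebrafish extraocular muscle (EOM, which turns the eyeball) and in trunk muscle, in fish with and without desmin, as a readout of vessel content. The set was fixed by name and holds 9 of the 32520 genes in the count tables: kdrl, kdr and flt1, which code receptors for vascular endothelial growth factor (VEGF); tie1 and tek, the receptor pair of the angiopoietin pathway; cdh5 and pecam1, adhesion proteins of endothelial cell junctions; fli1a, an ETS transcription factor of the vascular lineage; and egfl7, a secreted matrix protein of growing vessels. All 9 passed the filter on low counts in every comparison, and none was at 0 reads in any group.

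Endothelial cells line every blood vessel and form the capillary bed that runs between muscle fibres. VEGF made by the tissue binds Kdr and Kdrl on these cells and drives their survival and sprouting, whereas Flt1 binds the same ligands and restrains the signal. Angiopoietins act through Tek, with Tie1 as its partner, to stabilise vessels, and VE-cadherin, the product of cdh5, holds neighbouring endothelial cells together.

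Stranded mRNA libraries, made after poly-A selection, were sequenced for 4 groups of 3 libraries. All fish were 20 months old and of strain AB. The WT fish came, per the labels, from the line in which the desmin double mutant was generated, and the mutant fish carried desma-/-;desmb-/-, mutations in both zebrafish genes for desmin, the intermediate filament protein of the muscle Z-disc. The groups were thus WT EOM, mutant EOM, WT trunk and mutant trunk. Where the series text has a knock-down, the sample labels give the double mutant, and the labels were followed. Titles number the replicates as groups 1 to 3 without saying whether a library held 1 fish or several, or whether both muscles were taken from the same animals, so the p-values measure only the spread between these samples.

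Sense reads in genes totalled 46.1 M to 74.1 M per library, so 3 reads corresponded to 0.0405 to 0.0651 counts per 1 M reads of the unscaled library. This floor covers counting error only, since reads carried no molecular identifiers. Levels are given in CPM (counts per 1 M reads of the scaled library) unless called unscaled. The labels held for desma: its level was 573 to 685 CPM in WT EOM against 26.1 to 42.6 CPM in mutant EOM, and 559 to 679 CPM in WT trunk against 17.7 to 49.3 CPM in mutant trunk (log2 fold change −4.18 ± 0.21 and −4.23 ± 0.36, edgeR adjusted p = 0.000205 and 0.000949). The desmb gene stayed at or below 0.174 CPM in all libraries. The labelled cell type is myofibres, and the 23 matched genes of a skeletal myofibre list, none of them at 0 in any group, summed to 58203 to 79970 CPM in EOM and 135815 to 180125 CPM in trunk. Retinal genes were present too, with summed levels of 15 photoreceptor and retina genes of 28.6 to 346 CPM in WT EOM, 35.1 to 132 CPM in mutant EOM, 10.8 to 81.2 CPM in WT trunk and 2.78 to 3.65 CPM in mutant trunk. Of these genes rcvrna was at 0 in WT trunk, and opn1sw2, opn1lw1, opn1lw2 and arr3a were at 0 in mutant trunk. The part of retinal RNA in the values below was not tested.

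**Figure D1:**
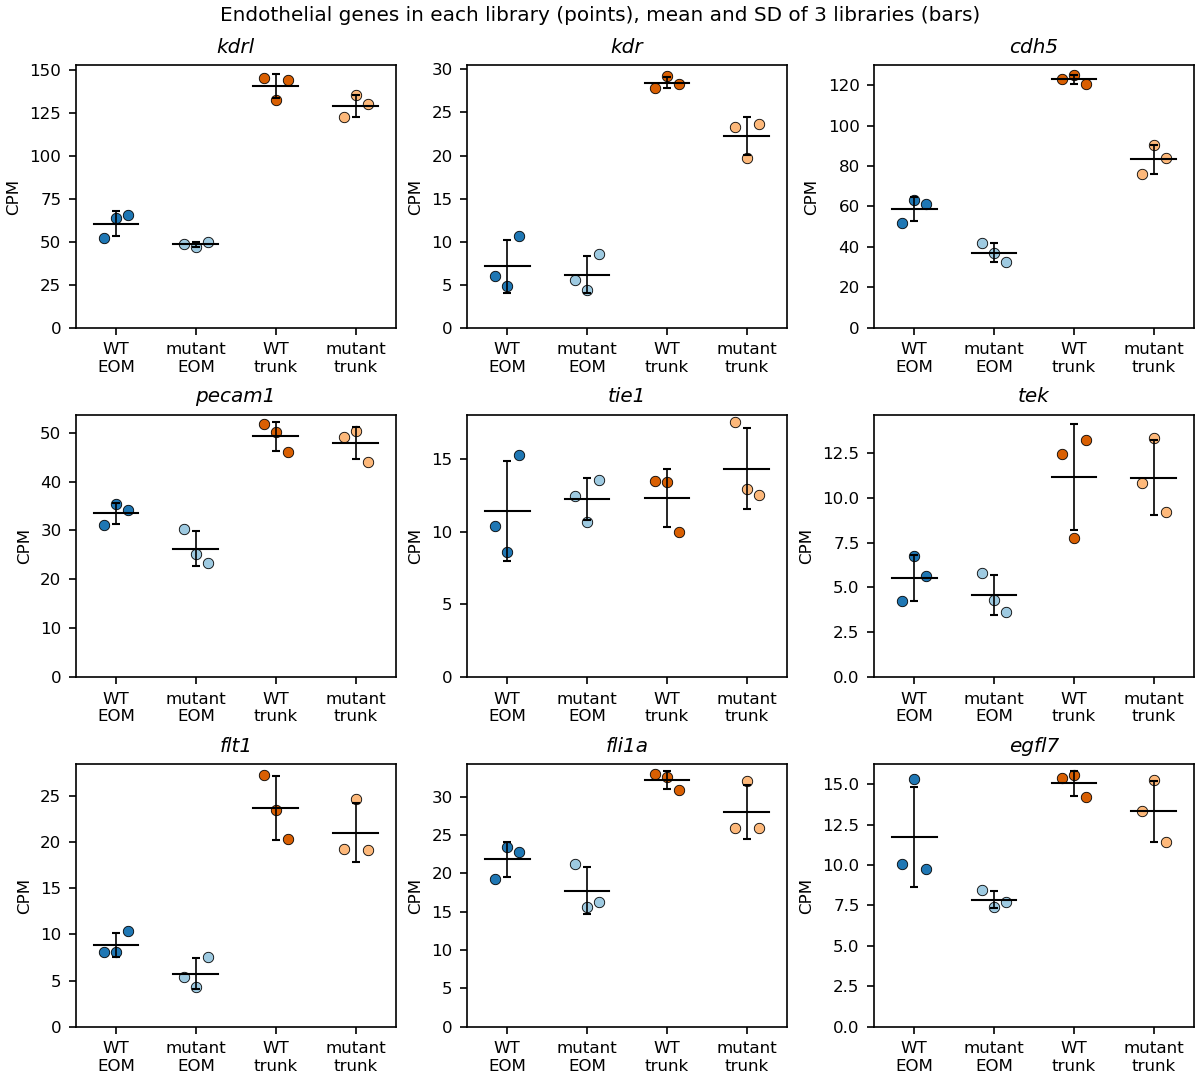
Level of each of the 9 endothelial genes in CPM (vertical axes from 0) in the 12 libraries, by group; points are libraries, and bars give the mean and SD of 3 libraries. Except for tie1 and egfl7, the EOM libraries of WT fish all lie below the trunk libraries of WT fish, and cdh5 is the gene whose mutant libraries lie below the WT libraries in both muscles with an adjusted p under 0.05. Levels are TMM-scaled, and on unscaled totals 4 of the 9 genes were called lower between the WT muscles, where 1920 of 18430 tested genes were.

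The first comparison set EOM against trunk muscle in WT fish. Per library, and with composition scaled by TMM factors, endothelial genes were lower in EOM. Of the 9 genes 7 passed the test in this direction (edgeR, adjusted p under 0.05), where 23.2% of all 18430 tested genes were called lower (on unscaled totals 4 of 9, where 1920 of the tested genes were). None was called higher (25.6% of tested genes were), and the same 7 had no overlap between the muscles, as 29.1% of tested genes did in this direction. The median log2 fold change of the 9 was −0.98, against 0.06 over all tested genes. The 9 genes together summed to 219 ± 22.8 CPM in WT EOM against 436 ± 11.7 CPM in WT trunk (mean ± SD, n = 3), a ratio of 0.504 (0.781 on unscaled totals). Levels are shares of the RNA in a library. Fewer endothelial cells, less of these transcripts per endothelial cell and more RNA from other cells cannot be told apart.

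In the mutants 8 of the 9 genes were lower in EOM than in trunk (edgeR), where 25.7% of 18698 tested genes were called lower, and none was called higher (27.4% of tested genes). No EOM library reached a trunk library for those 8 (29.8% of tested genes lay apart in this direction). On unscaled totals 5 were lower and tie1 higher, where 1561 of the tested genes were called lower and 11343 higher. The summed level was 166 ± 12.6 CPM in mutant EOM against 370 ± 20.2 CPM in mutant trunk, a ratio of 0.449 (0.76 on unscaled totals). This comparison shares no library with that of the WT muscles.

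The receptors for VEGF were furthest apart. Counts of kdrl, the receptor gene most used to mark zebrafish vessels, came to 52.1, 63.8 and 65.8 CPM in WT EOM against 49.0, 46.7 and 49.7 CPM in mutant EOM, and 145, 133 and 144 CPM in WT trunk against 122, 135 and 130 CPM in mutant trunk. Every EOM library lay below every trunk library. The log2 fold change of EOM against trunk was −1.18 ± 0.15 (SE) in WT (adjusted p = 0.00033) and −1.40 ± 0.10 in mutants (adjusted p = 8.85e-07). For kdr, the zebrafish counterpart of mammalian VEGF receptor KDR, the libraries gave 6.0, 4.84 and 10.7 CPM in WT EOM against 5.59, 4.36 and 8.56 CPM in mutant EOM, and 27.9, 29.2 and 28.3 CPM in WT trunk against 23.3, 19.7 and 23.7 CPM in mutant trunk. Its EOM libraries were widely spread, with the third of each genotype highest, yet all stayed below all trunk libraries. The log2 fold change was −1.96 ± 0.27 in WT (adjusted p = 0.000471) and −1.84 ± 0.22 in mutants (adjusted p = 0.000109), the lowest of the 9 in WT. The decoy-type receptor gene flt1 stood at 8.06, 8.08 and 10.3 CPM in WT EOM against 5.36, 4.31 and 7.59 CPM in mutant EOM, and 27.2, 23.4 and 20.3 CPM in WT trunk against 19.2, 24.6 and 19.1 CPM in mutant trunk. Again no EOM library reached a trunk library, with a log2 fold change of −1.38 ± 0.17 in WT (adjusted p = 0.000231) and −1.86 ± 0.20 in mutants (adjusted p = 3.61e-05).

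The angiopoietin receptors parted company. Levels of tek, which codes the receptor that binds angiopoietins, were 4.24, 6.76 and 5.61 CPM in WT EOM against 5.79, 4.31 and 3.65 CPM in mutant EOM, and 12.4, 7.76 and 13.2 CPM in WT trunk against 10.8, 13.3 and 9.22 CPM in mutant trunk. The muscles did not overlap, although the second WT trunk library came close to EOM, and tek was lower in EOM, with a log2 fold change of −0.98 ± 0.25 in WT (adjusted p = 0.0116; not called on unscaled totals) and −1.27 ± 0.19 in mutants (adjusted p = 0.000256). Its partner tie1 was at 10.4, 8.62 and 15.3 CPM in WT EOM against 12.5, 10.7 and 13.6 CPM in mutant EOM, and 13.5, 13.4 and 10.0 CPM in WT trunk against 17.5, 12.9 and 12.5 CPM in mutant trunk. All 4 groups of tie1 overlapped. With TMM scaling it passed no test between muscles (−0.07 ± 0.22 in WT, adjusted p = 0.82; −0.22 ± 0.15 in mutants, adjusted p = 0.26), whereas on unscaled totals its sign turned (0.55 in WT, 0.53 in mutants) and the mutant value was called (adjusted p = 0.0166). Without WT EOM replicate 2 its WT value was 0.10.

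Among the junction genes, cdh5 gave 51.9, 63.4 and 61.0 CPM in WT EOM against 41.8, 36.9 and 32.3 CPM in mutant EOM, and 123, 125 and 121 CPM in WT trunk against 75.9, 90.3 and 83.8 CPM in mutant trunk. With TMM scaling the groups did not overlap, in the order mutant EOM, WT EOM, mutant trunk and WT trunk from low to high, but on unscaled totals the middle groups overlapped and their means changed places (67.3 to 77.8 CPM in WT EOM, 60.8 to 69.6 CPM in mutant trunk). Between muscles the log2 fold change of cdh5 was −1.03 ± 0.14 in WT (adjusted p = 0.000466) and −1.16 ± 0.12 in mutants (adjusted p = 1.58e-05). For pecam1 the libraries held 31.2, 35.3 and 34.1 CPM in WT EOM against 30.3, 25.2 and 23.4 CPM in mutant EOM, and 51.7, 50.1 and 46.0 CPM in WT trunk against 49.0, 50.2 and 44.1 CPM in mutant trunk. Its EOM libraries all lay below its trunk libraries, with a smaller gap than for cdh5 (−0.52 ± 0.13 in WT, adjusted p = 0.0095; −0.85 ± 0.12 in mutants, adjusted p = 0.000151; 0.082 and −0.10 on unscaled totals, not called). In mammals the PECAM1 protein is also found on platelets and leukocytes. The zebrafish gene annotation holds a second copy, pecam1b, and the row counted here is the copy that RefSeq names pecam1a.

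The transcription factor gene fli1a was at 19.3, 23.5 and 22.7 CPM in WT EOM against 21.3, 15.6 and 16.3 CPM in mutant EOM, and 33.0, 32.6 and 30.9 CPM in WT trunk against 26.0, 32.1 and 26.0 CPM in mutant trunk. It was lower in EOM without overlap in either genotype (−0.52 ± 0.13 in WT, adjusted p = 0.0102; −0.65 ± 0.14 in mutants, adjusted p = 0.00271; 0.073 and 0.10 on unscaled totals, not called). Without WT EOM replicate 1 the WT calls of fli1a and pecam1 were lost (adjusted p = 0.0655 and 0.0596). The egfl7 gene measured 10.1, 15.3 and 9.77 CPM in WT EOM against 8.43, 7.39 and 7.73 CPM in mutant EOM, and 15.4, 15.6 and 14.2 CPM in WT trunk against 13.3, 15.2 and 11.4 CPM in mutant trunk. The second WT EOM library reached the trunk range, and WT muscles did not pass the test (−0.32 ± 0.19, adjusted p = 0.185), which without that library gave −0.56 (adjusted p = 0.0139). In mutants egfl7 was lower in EOM, with a log2 fold change of −0.75 ± 0.13 (adjusted p = 0.000665; 0.0037 and not called on unscaled totals).

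**Figure D2:**
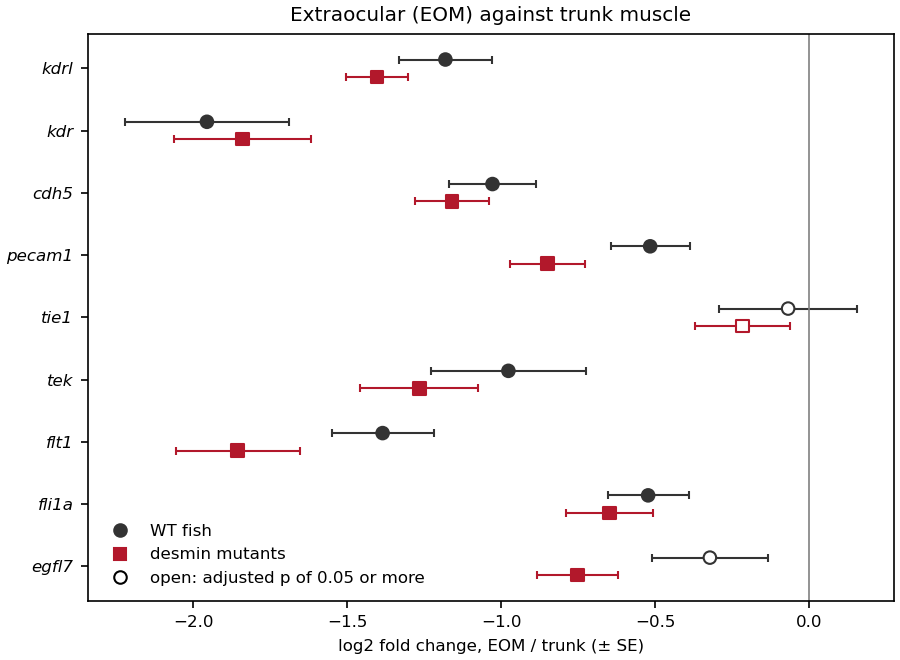
Log2 fold change of EOM against trunk muscle (horizontal axis, points with SE) for each gene, in WT fish (circles) and mutants (squares); filled points have an adjusted p under 0.05. With TMM scaling all points lie below 0, from −1.96 for kdr to −0.07 for tie1, whereas on unscaled totals tie1, fli1a and egfl7 turned positive in both genotypes and pecam1 in WT.

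How far these levels differ depends on how libraries of such unlike composition are scaled. TMM factors were 1.13 to 1.38 in EOM and 0.71 to 0.86 in trunk, and without them the median log2 fold change of all tested genes between the WT muscles moved from 0.06 to 0.66 and the share of calls that were higher in EOM from 52.4% to 82.4% (51.6% to 87.9% in mutants). On unscaled totals kdrl, kdr, cdh5 and flt1 were still called lower in WT EOM (−0.59, −1.34, −0.43 and −0.78, adjusted p between 0.00368 and 0.0227), whereas tek was not called (−0.40, adjusted p = 0.211) and pecam1, tie1, fli1a and egfl7 turned to small positive values (0.082, 0.55, 0.073 and 0.26) that did not pass. In mutants tie1 was then called higher in EOM (0.53, adjusted p = 0.0166), kdrl, kdr, cdh5, tek and flt1 were called lower, and pecam1 (−0.10), fli1a (0.10) and egfl7 (0.0037) did not pass. The lower kdrl, kdr, cdh5 and flt1 levels therefore held on both scales in both genotypes.

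The study's own question was what the loss of desmin does within each muscle. In EOM only cdh5 passed the test among the 9 genes: it was lower in mutants, with a log2 fold change of −0.66 ± 0.13 (0.631 times the WT level, edgeR adjusted p = 0.0351), where 1.4% of 18980 tested genes were called lower and 2.15% higher. In trunk, again, cdh5 alone was called, and lower, at −0.54 ± 0.13 (0.687 times the WT level, adjusted p = 0.0284), where 3.63% of 17342 tested genes were called lower and 4.76% higher. The libraries of the genotypes did not overlap in either muscle. The tests share no library, but the labels do not say whether they share animals. Both calls are close to the threshold: leaving out 1 library ended them in 5 of 6 cases each, the exceptions being WT EOM replicate 2 in EOM and WT trunk replicate 3 in trunk. The log2 fold change stayed between −0.76 and −0.59 in EOM (adjusted p 0.0455 to 0.152) and between −0.59 and −0.48 in trunk (adjusted p 0.0222 to 0.146).

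None of the other 8 genes was called by edgeR in either muscle. In EOM kdrl (−0.32 ± 0.12, adjusted p = 0.209), pecam1 (−0.35 ± 0.12, adjusted p = 0.18), flt1 (−0.61 ± 0.22, adjusted p = 0.179) and egfl7 (−0.58 ± 0.18, adjusted p = 0.135) also had all mutant libraries below all WT libraries, as 11.6% of tested genes did. An unadjusted p under 0.05 was reached by 5 of the 9 genes in EOM, where 18.5% of all tested genes did, and by 2 in trunk, near the share of 24.8% over all tested genes. DESeq2 called 1 in each muscle. Values for kdr (−0.21 ± 0.33), tek (−0.27 ± 0.22), fli1a (−0.30 ± 0.15) and tie1 (0.10 ± 0.21) overlapped between genotypes. The sign of kdr turned without WT EOM replicate 3 (0.19) and that of tie1 without WT EOM replicate 2 (−0.064).

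In trunk kdr was the other gene without overlap (−0.34 ± 0.13, adjusted p = 0.125; 15.2% of tested genes lay apart in this direction). The rest gave small values in trunk, −0.10 ± 0.13 for kdrl, −0.02 ± 0.12 for pecam1, 0.24 ± 0.17 for tie1, 0.01 ± 0.22 for tek, −0.15 ± 0.15 for flt1, −0.18 ± 0.13 for fli1a and −0.15 ± 0.14 for egfl7. The summed level of the 9 genes in mutants was 0.757 of that in WT in EOM and 0.85 of it in trunk. No mutant library reached the lowest WT library of its muscle in this sum. The sum includes cdh5 and partly restates its call. For trunk, cdh5 had a mean of 123 CPM (WT) and 83.4 CPM (mutant), within sums of 436 and 370 CPM. Its EOM means were 58.8 CPM (WT) and 37.0 CPM (mutant), within sums of 219 and 166 CPM. A drop of the set without cdh5 was not tested.

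**Figure D3:**
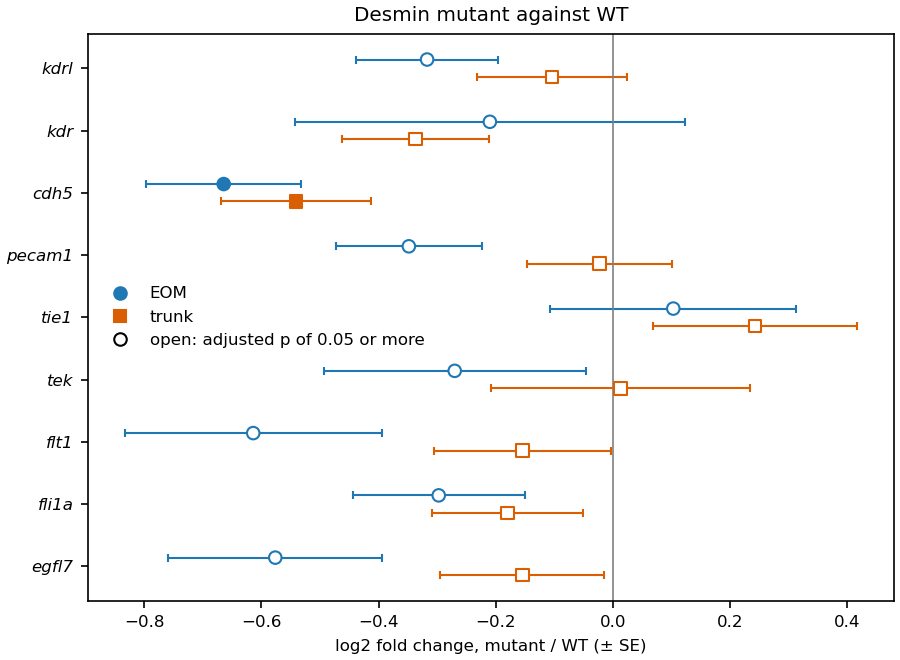
Log2 fold change of mutant against WT (horizontal axis, points with SE) for each gene in EOM (circles) and trunk (squares); filled points have an adjusted p under 0.05. Only cdh5 is filled, at −0.66 in EOM and −0.54 in trunk, and tie1 is the gene with positive values in both muscles, although without WT EOM replicate 2 its EOM value was −0.064.

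Whether the mutant effect differs between muscles was tested as an interaction over all 12 libraries, in which 0.0914% of 19687 genes were called. None of the 9 endothelial genes was called by edgeR or by DESeq2, and none of them had an unadjusted p under 0.05. For cdh5 the effect in EOM minus that in trunk was −0.11 ± 0.18 (adjusted p = 0.873). The values furthest from 0 were those of flt1 (−0.44 ± 0.28, adjusted p = 0.621), egfl7 (−0.41 ± 0.24, adjusted p = 0.599) and pecam1 (−0.31 ± 0.17, adjusted p = 0.585). In simulated data edgeR recovered 16.5% of genes given a 2-fold difference in this comparison.

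The mutant effect averaged over both muscles, a contrast added after seeing the data that uses the same libraries as the separate tests, was −0.61 ± 0.09 for cdh5 (edgeR adjusted p = 0.00058; 5.67% of 19687 genes were called lower and 7.61% higher). This call was kept whichever of the 12 libraries was omitted (adjusted p 0.00102 to 0.00315). The other 8 genes did not pass, with egfl7 (−0.38 ± 0.12, adjusted p = 0.0514), flt1 (−0.40 ± 0.14, adjusted p = 0.075) and kdrl (−0.22 ± 0.08, adjusted p = 0.0999) next in order. DESeq2 called kdrl and egfl7 as well (adjusted p = 0.0309 and 0.0335), and edgeR called egfl7 with DESeq2 size factors (adjusted p = 0.0498) and on unscaled totals (adjusted p = 0.0413). Of the 9 values 8 were negative with a median of −0.25, and over all genes the median was −0.03 and 54.4% of values were negative.

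Ratios of reads within a library do not depend on scaling. The pairs were chosen after seeing the data, and those with cdh5, the gene called lower in mutants, partly restate that call. Reads of cdh5 per 100 reads of kdrl came to 99.7, 99.4 and 92.7 in WT EOM, 85.3, 79.0 and 65.0 in mutant EOM, 84.7, 94.4 and 83.6 in WT trunk and 62.0, 66.9 and 64.4 in mutant trunk. Within each muscle every mutant library lay below every WT library, so that cdh5 was low in mutants relative to another endothelial gene (97.3 ± 3.97 against 76.5 ± 10.4 in EOM, 87.6 ± 5.91 against 64.4 ± 2.42 in trunk; two-sided exact permutation p = 0.1 in each, the smallest that 3 against 3 libraries can give). Reads of tie1 per 100 reads of cdh5 were higher in mutants, 33.6 ± 7.28 against 19.6 ± 5.73 in EOM and 17.5 ± 4.9 against 10.0 ± 1.48 in trunk, again without overlap (exact permutation p = 0.1 in each). That ratio was also higher in EOM than in trunk within each genotype, without overlap (exact permutation p = 0.1 in each). The ratio of kdr to kdrl separated the muscles of WT fish, with 11.8 ± 4.3 reads of kdr per 100 of kdrl in WT EOM and 20.3 ± 1.52 in WT trunk (exact permutation p = 0.1). In mutant EOM the ratio was 12.7 ± 4.08, overlapping WT EOM (exact permutation p = 0.8), and in mutant trunk it was 17.3 ± 2.36, below all WT trunk libraries (exact permutation p = 0.1). Between the mutant muscles it overlapped (9.33 to 17.2 in EOM, 14.6 to 19.1 in trunk, exact permutation p = 0.2). With 3 ratios and 12 group comparisons in this family, no adjusted value could pass.

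**Figure D4:**
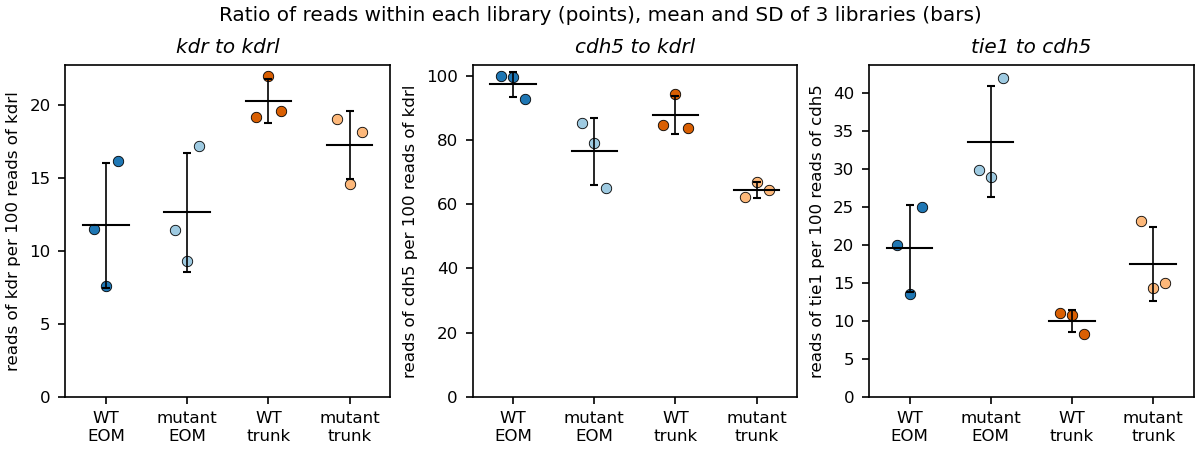
Reads of 1 endothelial gene per 100 reads of another (vertical axes from 0) in the 12 libraries by group; points are libraries, bars the mean and SD of 3. The ratio of cdh5 to kdrl is lower and that of tie1 to cdh5 higher in the mutant libraries of each muscle, without overlap. Both pairs were picked with the values known and partly restate the lower cdh5 level in mutants.

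A wider list of pan-endothelial genes behaved less uniformly than the 9. Over all tested genes 23.2% were called lower and 25.6% higher in WT EOM (1920 and 9006 of 18430 on unscaled totals). In mutant EOM these shares were 25.7% and 27.4% (1561 and 11343 of 18698 on unscaled totals). Of the 40 matched genes of the wider list 39 were tested between the WT muscles. There edgeR called 18 lower and 6 higher in EOM (median log2 fold change −0.57, and on unscaled totals 4 lower and 12 higher). Those with the smallest adjusted p were she, coding an adaptor protein of endothelial cells, at 4.87 ± 1.39 CPM in WT EOM against 19.6 ± 2.2 CPM in WT trunk (−1.97, adjusted p = 0.000148); cldn5b, a tight junction claudin (−1.38, adjusted p = 0.000199); and sox7, a vascular SOX factor (−1.10, adjusted p = 0.000442). All 3 were also called lower on unscaled totals. In mutants 19 of 39 were lower and 7 higher (median −0.49; 5 lower and 15 higher unscaled), led by rasip1, a regulator of vessel lumen formation (−1.44, adjusted p = 5.48e-06), cldn5b (−1.27) and plvapa, a protein of capillary diaphragms (−0.92; −0.17 and not called when unscaled).

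Among 18 tested arterial, tip cell and Notch genes 8 were lower and 4 higher in WT EOM (median −0.43, and 4 lower and 7 higher unscaled), against 23.2% and 25.6% of all tested genes. The Notch ligand dll4 was at 28.7 ± 2.23 CPM in WT EOM against 70.2 ± 10.3 CPM in WT trunk (−1.25, adjusted p = 0.000249), and the receptor notch1b at 3.28 ± 1.66 and 17.8 ± 1.04 CPM (−2.41, adjusted p = 0.000382). The chemokine receptor cxcr4b went the other way (0.99, adjusted p = 0.000803). Leukocyte genes were also higher there (13 of 19 called), and which cells carried cxcr4b was not tested. In mutants 9 of 17 were lower and 4 higher (3 lower and 6 higher unscaled), with dll4 (−1.40), efnb2b, an arterial ephrin (−1.79), and notch1b (−2.17) first by adjusted p. Of 14 venous and lymphatic genes 5 were lower and 1 higher in WT EOM (median −0.37; 1 lower and 1 higher unscaled). The smallest adjusted p were those of dab2, an endocytic adaptor, which was higher (2.31), and of stab1, a scavenger receptor (−1.65), and ephb4a, the venous ephrin receptor (−0.83; −0.22 and not called unscaled, adjusted p = 0.402), which were lower. In mutants 4 were lower, near the share of 25.7% over all tested genes, and 1 higher (0 lower and 7 higher unscaled). There dab2 (1.92), stab1 (−1.15) and ephb4a (−0.61) came first by adjusted p. On unscaled totals stab1 (−0.41, adjusted p = 0.276) and ephb4a (0.15, adjusted p = 0.416) were not called.

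**Figure D5:**
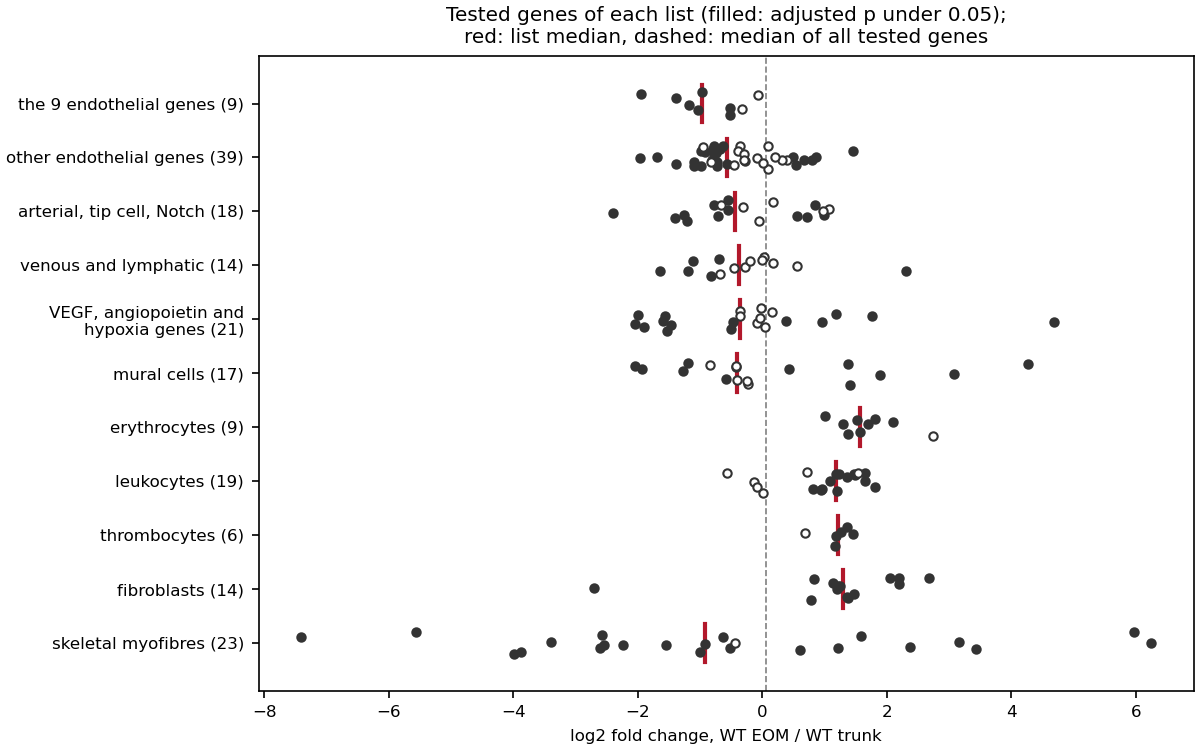
Log2 fold change of WT EOM against WT trunk (horizontal axis) for the tested genes of each list, with TMM scaling; filled points have an adjusted p under 0.05, red bars mark list medians and the dashed line the median of all tested genes, 0.06. The median of the 9 endothelial genes is −0.98 and that of the other endothelial genes −0.57, while erythrocyte, leukocyte, thrombocyte and fibroblast lists have medians from 1.18 to 1.57. On unscaled totals 12 of the other endothelial genes were called higher and 4 lower, where 9006 and 1920 of all 18430 tested genes were.

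The signals that these receptors read differed gene by gene. Of 21 tested VEGF and angiopoietin ligands, co-receptors and hypoxia factors 9 were lower and 5 higher in WT EOM (median −0.35, and 4 lower and 9 higher unscaled). Over all tested genes 23.2% were lower, and the share of 25.6% higher was near that of this list. The ligand gene vegfd, whose product acts on the VEGF receptors of lymphatic and blood endothelium, was at 160 ± 24.4 CPM in WT EOM against 6.36 ± 1.08 CPM in WT trunk (4.69 ± 0.21, adjusted p = 1.49e-06). In contrast angpt1, the activating ligand of Tek, was at 2.7 ± 0.383 CPM in WT EOM against 11.3 ± 2.51 CPM in WT trunk (−2.04, adjusted p = 0.000135), and epas1b, a hypoxia-inducible factor, was lower as well (−2.00, adjusted p = 0.000344). In mutants 8 of 20 were lower and 4 higher (2 lower and 10 higher unscaled), with vegfd (4.16), angpt2a, an antagonist of Tek (−1.63), and angpt4 (2.54) leading. Of 17 mural cell genes, which mark the pericytes and smooth muscle around vessels, 5 were lower and 6 higher in WT EOM (3 lower and 7 higher unscaled), against 23.2% and 25.6% of all tested genes. Their median log2 fold change was −0.41 in WT, with 11 of the 17 values negative, and −0.19 in mutants, with 10 negative. In mutant EOM 7 were lower and 5 higher (1 lower and 8 higher unscaled), against 25.7% and 27.4% of all tested genes. In both genotypes foxc1a, a vascular forkhead factor (3.07 in WT, 3.13 in mutants), rgs5b, a copy of the pericyte marker rgs5 (4.27 and 3.65), and smtnb, a smoothelin of contractile smooth muscle (1.89 and 2.05), led by adjusted p. All 3 were higher in EOM, whereas most TMM-scaled values of the list were negative. On unscaled totals most called mural genes were higher.

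Within the muscles few vascular genes were called in the mutants, as few of all tested genes were. In EOM none of 40 pan-endothelial genes was called by edgeR, near the shares of 1.4% lower and 2.15% higher over all tested genes. Of the 40 values 28 were negative (median −0.20), where 52% of all tested genes were negative. An unadjusted p under 0.05 was reached by 13, all lower (8.61% of all tested genes were lower at that level), and DESeq2 called 6, all lower, among 1486 genes in all. Among the 18 arterial genes esm1, a tip cell proteoglycan, was lower (8.89 ± 1.16 CPM in WT, 4.42 ± 0.537 CPM in mutants; −1.01, adjusted p = 0.0158), a call lost without mutant EOM replicate 1 or 2 (adjusted p = 0.0574 and 0.0894). No venous, VEGF or mural gene was called by edgeR in EOM (2 of 14, 5 of 21 and 2 of 17 at an unadjusted p under 0.05; against 18.5% of all tested genes; DESeq2 called 0, 0 and 1).

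In trunk 34 of 39 pan-endothelial genes had negative values (median −0.23), where 51.5% of all tested genes were negative. An unadjusted p under 0.05 in edgeR was reached by 5 that were lower, near the share of 12.2% over all tested genes, and by 1 that was higher (12.7% of all tested genes). After adjustment edgeR called 1 lower and 1 higher (3.63% and 4.76% of all tested genes). The lower was calcrla, an adrenomedullin receptor (5.44 ± 0.744 CPM in WT, 2.73 ± 0.0705 CPM in mutants; −0.97, adjusted p = 0.00753), and the higher cd34, a sialomucin that fibroblasts and blood progenitors also carry in mammals (0.55, adjusted p = 0.0297). The lymphatic receptor gene lyve1a was at 6.81 ± 0.489 CPM in WT and 2.63 ± 0.287 CPM in mutants (−1.35, adjusted p = 0.00129), the only called gene of 14 on its list. Its call and that of calcrla survived the omission of each of the 6 libraries in turn, but in the fit of all 12 libraries lyve1a was not called (−1.38, adjusted p = 0.131). Further single calls were notch1b (−0.56, adjusted p = 0.0215) and cxcr4b (0.64, adjusted p = 0.0318) among 16 genes of the arterial, tip cell and Notch list. Among 20 VEGF and angiopoietin genes angpt1 was called (−0.75, adjusted p = 0.0466). Which cells carried cxcr4b was not tested. These were less stable, as was the call of cd34: notch1b and angpt1 were lost in 5 of 6 such fits and cd34 and cxcr4b in 4 of 6 (highest adjusted p 0.104, 0.182, 0.126 and 0.119). On unscaled totals cd34, cxcr4b and angpt1 were not called (adjusted p = 0.0518, 0.0937 and 0.0546), in the fit of all 12 libraries notch1b and cxcr4b were not (adjusted p = 0.254 and 0.0639), and angpt1 was not with a filter at 50 reads (adjusted p = 0.0537). Of 17 mural genes none was called by edgeR, 5 had an unadjusted p under 0.05, near the share of 24.8% over all tested genes, and DESeq2 called 1.

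Markers of other cell types moved with the same comparisons. Between the WT muscles, called genes were higher in EOM in 8 of 9 erythrocyte, 13 of 19 leukocyte, 5 of 6 thrombocyte and 13 of 14 fibroblast genes, with summed levels of 1178 to 2519 against 421 to 545 CPM, 660 to 698 against 231 to 245 CPM, 33.7 to 67.5 against 18.0 to 23.9 CPM and 1440 to 1532 against 564 to 848 CPM. Of 10 Schwann cell and nerve genes 6 were higher and 2 lower. Over all 18430 tested genes 25.6% were called higher and 23.2% lower (9006 and 1920 genes on unscaled totals). The lists of this paragraph were not counted on unscaled totals. Other lists were lower in sum, as the endothelial genes were: 14 of 23 myofibre genes were lower and 8 higher, with a summed EOM to trunk ratio of 0.5 in WT and 0.401 in mutants, and 3 of 6 pigment cell genes were lower and 1 higher. In mutants against WT, 7 of 19 leukocyte genes were higher in EOM and 12 of 18 in trunk (2.15% and 4.76% of all tested genes), with sums of 944 to 1193 CPM in mutant EOM and 415 to 703 CPM in mutant trunk. Fibroblast genes were higher in 1 of 14 in EOM and 4 of 14 in trunk (1792 to 2121 CPM in mutant EOM, 1009 to 1128 CPM in mutant trunk). All 9 erythrocyte genes had negative values in mutant EOM (median −0.80; 814 to 1140 CPM), where edgeR called 1 lower, DESeq2 called 5 lower and 6 were lower at an unadjusted p under 0.05. Of all tested genes 52% had negative values there, edgeR called 1.4% lower and 8.61% were lower at an unadjusted p under 0.05. The edgeR call, of the carbonic anhydrase gene cahz, was lost in 5 of 6 fits without a library. No erythrocyte gene was called in trunk (324 to 542 CPM; edgeR, none at an unadjusted p under 0.05 and none by DESeq2). In trunk edgeR called 3.63% of all tested genes lower and 4.76% higher. Of these lists lyz was at 0 in mutant trunk, tcf21 in WT trunk and the pigment cell gene tyr in mutant EOM. All other matched genes of the lists in this paragraph had reads in every group. In the vascular lists heyl, vegfbb and apela were at 0 in mutant EOM, tbx20 and apela in WT trunk, and vegfbb in mutant trunk. The part that these cells have in the endothelial values was not tested.

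The endothelial genes also varied together to different degrees. Across the 12 libraries the log2 level of kdrl had r = 0.985 with the mean of the other 8, flt1 0.976, pecam1 0.966, fli1a 0.945, cdh5 0.935, kdr 0.922, tek 0.895 and egfl7 0.823, while tie1 had 0.273. The libraries fall into 2 tissue clusters, so these values mostly describe the gap between muscles. After subtraction of group means the values were 0.714 for fli1a, 0.698 for kdrl, 0.549 for pecam1 and 0.539 for flt1. They were lower for cdh5 (0.397), tek (0.276), tie1 (0.267), egfl7 (0.161) and kdr (0.113). Among 14305 genes averaging 50 reads or more per library, the 5 whose levels over the 12 libraries were most like the mean of the 9 were pdpr (r = 0.993), ptprb (0.993), klhdc3 (0.992), coro2bb (0.992) and asb2a.1 (0.989). For the deviations from group means they were abi1a (0.963), mafa (0.955), ptprb (0.947), zgc:113337 (0.935) and fer1l6 (0.913). The endothelial receptor phosphatase gene ptprb, a member of the wider endothelial list, was on both, at 55.0 CPM in WT EOM, 45.1 CPM in mutant EOM, 111.2 CPM in WT trunk and 98.8 CPM in mutant trunk.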

How the data were processed

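The authors deposited 12 tables, 1 per library and without header, that hold unnormalized read counts by gene. The submitters' processing notes list STAR, DESeq2 and the build GRCz11. Each table holds a count for either strand and 1 for each strand; of these, the first was taken as sense because the other held 2.77% to 3.21% of stranded reads. Antisense reads reached at most 41 per library for the 9 genes. As shares of all reads, the tallies outside genes (unmapped 7.93% to 14.3%, multimapping 9.96% to 11.4%, no feature 5.93% to 9.57%, ambiguous 1.34% to 1.59%) did not enter library sizes or tests. Multimapping reads are not counted, which lowers near-identical copies.

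Symbols came from a supplied symbol table (29201 of 32520 IDs) and RefSeq's GRCz12tu gene table (20941 IDs), by shared symbol and neighbouring genes; no sequences or coordinates were used, and levels are not compared between genes because lengths were not used. The genes and lists were chosen with earlier results of these data known, so no list's count is independent evidence; lists are described by counts and medians only. Named genes are the 9, the 3 called genes of smallest adjusted p of each vascular list, desma and desmb, and the 5 of most like pattern; other genes singled out were chosen after their values were seen.

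Tests used edgeR 4.0.16 under R 4.3.3 on the counts (robust quasi-likelihood, TMM, filterByExpr), with Benjamini-Hochberg adjustment over all tested genes and calls under 0.05. Levels are CPM on TMM-scaled sizes over all 12 libraries, and errors of fold changes are those implied by the F statistic. On simulated data with 200 of 19687 genes changed 2-fold, edgeR recovered 60% in mutant against WT EOM and 47.5% in trunk, with 4% and 8.65% of calls false. On the same data DESeq2 recovered 73.5% and 71%, with 17.9% and 23.2% of calls false. Of its calls 20% were false for the difference between muscles and 17.2% for the averaged effect (edgeR 0% and 5.38%). Counts were drawn with dispersions that edgeR estimated, and only genes averaging 50 reads or more were changed. The shares of false calls therefore need not hold for the measured data. Calls by DESeq2 alone were treated as weaker evidence. Alternatives were DESeq2 1.42.0, its size factors, unscaled totals, other filters, either-strand counts, a fit of all 12 libraries, a replicate block and leaving out each library. No 2 libraries were duplicates.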

Additional observations from a re-analysis of the deposited data

How the results depend on the processing

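In this section endothelial genes are the 9 of the set. Counts of called endothelial genes and their directions kept within 1.5 times of the reported value under most alternatives, with these exceptions. The cause was not tested. Between the WT muscles 4 rather than 7 endothelial genes were called on unscaled totals, where pecam1 (0.082), tie1 (0.55), fli1a (0.073) and egfl7 (0.26) changed sign, and in mutants tie1 (0.53), fli1a (0.10), egfl7 (0.0037) and ephb4a (0.15) did. On those totals the summed levels were 269.6 CPM in WT EOM, 219.1 CPM in mutant EOM, 345.4 CPM in WT trunk and 288.2 CPM in mutant trunk, so the EOM to trunk ratio was 0.781 in WT and 0.76 in mutants. Leaving out a library gave 5 to 8 called endothelial genes in WT, and tie1 between −0.33 and 0.10 (the latter without WT EOM replicate 2).

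For mutant against WT in EOM, 675 genes were called, 1486 by DESeq2 and 127 to 648 without a library, with 0 to 1 endothelial genes; the split of calls moved from 60.6% to 73.7% higher on unscaled totals. Without a library kdr ranged from −0.53 to 0.19 and tie1 from −0.064 to 0.37. In trunk 1456 genes were called and 488 to 2043 without a library, with 0 to 1 endothelial genes. There tek turned to −0.057 on unscaled totals and −0.0021 in the fit of all 12 libraries; without a library it ranged from −0.20 (WT replicate 2; −0.13 without mutant replicate 2) to 0.17, and pecam1 from −0.058 to 0.035 (mutant replicate 3; 0.0029 without WT replicate 1). For the difference between muscles, 18 genes were called, 194 by DESeq2, 35 with no filter, 11 with at least 50 reads and 5 to 19 without a library. No setting called any of the 9 endothelial genes. Unscaled, cdh5 was at 0.020 and fli1a at 0.030, and without a library kdr ranged from −0.17 to 0.54, tie1 from −0.29 to 0.13 and fli1a from −0.26 to 0.0080. For the averaged effect, 2 endothelial genes rather than 1 were called with DESeq2 size factors and unscaled totals, 3 by DESeq2, and 1 to 2 without a library.

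The replicate numbers did not pair the samples consistently, and whether they pair some of them is not known. Correlations of same-numbered libraries ran from −0.247 to 0.507 between the EOM groups, with 2 of 3 pairs over 0.1. In each other comparison 1 of 3 pairs was over 0.1. With the replicate number as a block, 1191 genes were called in EOM and 2 of them were endothelial (cdh5, and flt1 at an adjusted p of 0.0312), 0 endothelial genes were called in trunk (cdh5 adjusted p = 0.0557), 6 genes were called for the difference and 2 endothelial genes for the averaged effect (cdh5 and egfl7, the latter at an adjusted p of 0.0458). The block also ended the trunk calls of cd34 and angpt1 (adjusted p = 0.0544 and 0.0788). At 3 libraries a group, a missed threshold does not show equal levels.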

Other observations

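In the mutant effect averaged over both muscles, added after seeing the data, 7.61% of all 19687 tested genes were called higher and 5.67% lower. Of 40 pan-endothelial genes edgeR called 6 lower and 1 higher. Among the lower were ecscr, an endothelial surface regulator (8.53 ± 1.4 and 5.65 ± 0.551 CPM in WT and mutant EOM, 13.0 ± 1.29 and 10.2 ± 0.381 CPM in WT and mutant trunk; −0.47 ± 0.10, adjusted p = 0.00673), and rasip1 (−0.52 ± 0.11, adjusted p = 0.00806). The transcription regulators lmo2 (−0.70 ± 0.16, adjusted p = 0.00917) and tal1 (−0.59 ± 0.15, adjusted p = 0.0177) were lower too, and both are also genes of the blood lineage, including erythroid cells. The remaining lower genes were calcrla (−0.54 ± 0.15) and plvapa (−0.40 ± 0.12), and the higher was cd34 (0.39 ± 0.09, adjusted p = 0.00836). In the separate edgeR tests calcrla was called lower and cd34 higher in trunk, and neither was called in EOM. The genes ecscr, rasip1, lmo2, tal1 and plvapa were called in neither muscle alone. The averaged values of all these genes therefore do not show a change in both muscles. Of 9 erythrocyte genes 2 were called lower in the same contrast (median −0.54), and their part in the values of lmo2 and tal1 was not tested.

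In the same averaged contrast the hypoxia factor gene hif1aa (−0.48 ± 0.12, adjusted p = 0.0154) and pdgfbb, a growth factor for mural cells (−0.45 ± 0.12, adjusted p = 0.0292), were called lower, as was the pericyte gene ndufa4l2a (−0.39 ± 0.08, adjusted p = 0.00676). The lymphatic growth gene ccbe1 was called higher (0.59 ± 0.18, adjusted p = 0.0404). These calls were 2 of 22 VEGF and angiopoietin genes, 1 of 17 mural genes and 1 of 14 venous and lymphatic genes. Of all tested genes 5.67% were called lower and 7.61% higher, near the shares of the mural and venous lists. None of these genes was called by edgeR in either muscle alone. Without 1 library the call of hif1aa was lost once (adjusted p = 0.0511, without mutant EOM replicate 1), that of pdgfbb in 7 of 12 fits and that of ccbe1 in 10 of 12, and on unscaled totals all 3 of these were lost (adjusted p = 0.0516, 0.0946 and 0.0539).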
